A study of Saccharomyces cerevisiae with 10 samples.

Results

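PRP22-OE, the yeast strain carrying extra copies of the splicing helicase gene PRP22, was set directly against TIF35-OE, the strain carrying extra copies of the translation initiation factor gene TIF35. The comparison took 4 of the 10 RNA-seq libraries of the study, 2 independent cultures of PRP22-OE and 2 of TIF35-OE. The 2 cultures of the wild-type control (WT) are given as a reference level. WT and the 4 libraries of the LSM5-OE and UTP6-OE strains also entered the estimate of the spread between cultures and the filter on low values. Of 5824 deposited features, the 5768 with a mean of at least 1 FPKM over all 10 libraries were tested. FPKM is the number of fragments of a feature scaled to its length and to the size of the library.

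All strains were made in BY4741, a haploid laboratory strain of mating type a derived from S288c. PRP22-OE and TIF35-OE each harbored 1 gene, with its own promoter and terminator, on a low-copy centromeric plasmid, so that overexpression here means extra gene copies and not a strong foreign promoter. Cells of every strain, WT included, were untreated, grew in liquid medium lacking uracil with 2% glucose, and were collected at an OD600 of 0.4. Per the paper's methods, colonies of each transformation were stored frozen, and lifespan and molecular work started from that stock. No separate transformants are named for the 2 cultures of a strain. A difference particular to a stored clone cannot be told apart from one due to the plasmid gene. The p-values therefore measure the spread between these cultures.

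Prp22 is a DEAH-box ATPase of the spliceosome, the machine that removes introns from pre-mRNA. It acts in the second catalytic step and then releases the finished mRNA from the spliceosome. Tif35 is the g subunit of eIF3, the complex that binds the small ribosomal subunit, helps to bring the mRNA to it and takes part in scanning for the start codon. Both genes are essential. Yeast also adjusts nutrient uptake through dedicated activators, among them Zap1 for zinc, Aft1 for iron, Met4 with its partners Cbf1, Met31 and Met32 for sulfur, and Pho4 for phosphate. Each of these activators switches on transporters and enzymes when its nutrient is scarce.

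Marker genes were read first. STE2, the alpha-factor receptor of a cells, was at 516 and 508 FPKM in PRP22-OE and 519 and 506 FPKM in TIF35-OE, while STE3, the a-factor receptor of alpha cells, was at 13.8 and 14.1 FPKM in PRP22-OE and 17.0 and 16.2 FPKM in TIF35-OE. URA3, the marker of the plasmid, was at 725 and 625 FPKM in PRP22-OE, 686 and 780.1 FPKM in TIF35-OE and 919.6 and 937 FPKM in WT. The vector of the WT cultures is not named for this experiment in the sources used here. URA3 is deleted from the BY4741 genome and carried by the plasmid, and WT expressed it and grew without uracil. For its lifespan assays the paper names an empty vector in WT. HIS3, listed among the genes deleted in BY4741, still had reads. It was at 181 and 186 FPKM in PRP22-OE, 247 and 223 FPKM in TIF35-OE and 163 and 148 FPKM in WT. The source of these reads was not tested. An estimate from the spacing of low values put the depth at between 13453000 and 17358000 fragments per library. The same estimate gave a fragment length of 281.5 bases in the second PRP22-OE culture and 283.5 bases in the first TIF35-OE culture, against 314 bases in the first PRP22-OE and 309.5 bases in the second TIF35-OE culture. Each strain thus had 1 library with shorter and 1 with longer fragments, and the difference between strains could be read within each class. The 2 within-class differences correlated across the 5270 features of at least 400 bases with r = 0.69, and across the 498 shorter features with r = -0.06. These are descriptions across features, which are not independent replicates and share libraries. Values of exactly 0 in at least 1 of the 4 libraries occurred in 89 of the features under 400 bases and in 9 of the longer ones, so features under 400 bases are treated apart.

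**Figure D1:**
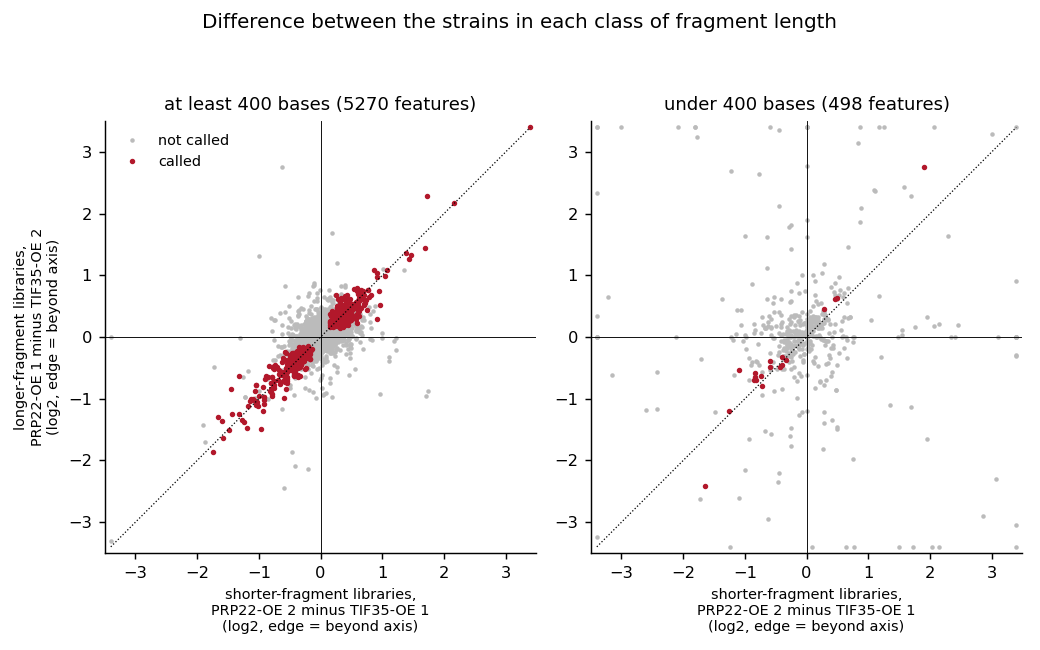
Difference between PRP22-OE and TIF35-OE on the log2(FPKM + 0.5) scale within the shorter-fragment libraries (x axis) and the longer-fragment libraries (y axis), one point per feature, with values beyond the axes drawn at the edge and the dotted line marking equal differences. The 5270 features of at least 400 bases lie along the diagonal (r = 0.69), while the 498 shorter features scatter (r = -0.06). Called features, in red, were selected for their difference in these same libraries.

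Between the strains, 653 of 5768 features (11.3%) were called at an adjusted p of at most 0.05. Of these, 342 (5.93%) were higher and 311 (5.39%) were lower in PRP22-OE. The differences were mostly small: 488 of the 653 (74.7%) were under 0.5 in size on the log2 scale and the median size was 0.36. Only 34 features (0.589%) were called with a difference of 1 or more on the log2 scale, 10 higher and 24 lower in PRP22-OE. Both cultures of 1 strain lay beyond both cultures of the other in 3406 features (59.0%), so non-overlap of 2 cultures with 2 was common here. A single gene tested alone by an exact permutation test of 2 against 2 cultures cannot go below a two-sided p of 0.333, so calls rest on the spread shared across genes and libraries. The count fell to 254 without PRP22-OE culture 1, 178 without PRP22-OE culture 2, 190 without TIF35-OE culture 1 and 203 without TIF35-OE culture 2, and the fit of the 4 libraries alone called 131. The count with a difference of 1 or more stayed between 29 and 37 in those fits. Rescaling the libraries by the median of ratios moved the median of all features to 0.002, against 0.04 as deposited, and the share of calls that were higher in PRP22-OE to 38.4%, against 52.4%. It gave 301 higher and 483 lower features, so list counts after rescaling are to be read against these. In these bulk cultures, fewer cells using a gene and less RNA per cell cannot be told apart.

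**Figure D2:**
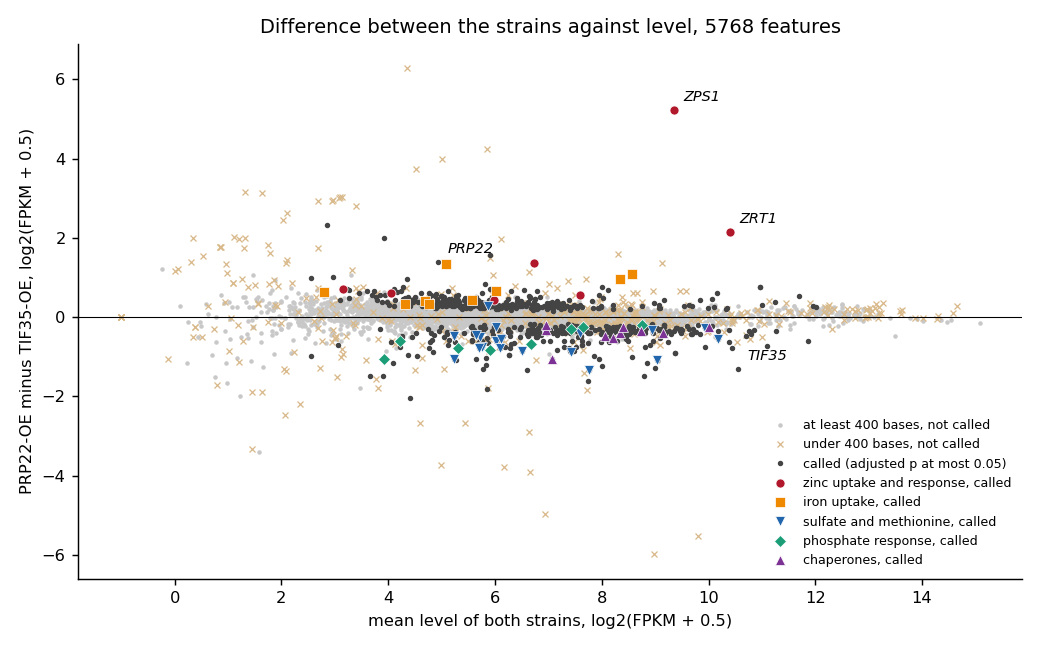
Mean level of both strains (x axis, log2(FPKM + 0.5)) against the difference PRP22-OE minus TIF35-OE (y axis, same scale) for the 5768 features, with called zinc, iron, sulfate, phosphate and chaperone genes in colour. ZPS1 at 5.22 and ZRT1 at 2.16 stand highest among called features of at least 400 bases, and the widest scatter is in features under 400 bases (crosses).

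Each plasmid gene was highest in its own strain. PRP22, on chromosome V (R64, chrV:178841-182278, plus strand), was at 43.3 and 44.5 FPKM in the PRP22-OE cultures, against 15.8 and 16.9 FPKM in the TIF35-OE cultures and 20.9 and 20.0 FPKM in WT. It was 2.69-fold higher in PRP22-OE (log2 fold change 1.40 ± 0.09 (SE), adjusted p = 0.000162). TIF35, on chromosome IV (R64, chrIV:1324477-1325301, minus strand), was at 857 and 875 FPKM in the PRP22-OE cultures, against 2121 and 2183 FPKM in the TIF35-OE cultures and 834 and 829 FPKM in WT. TIF35 was 2.49-fold higher in TIF35-OE (log2 fold change -1.31 ± 0.05 (SE), adjusted p = 1.47e-05). In both genes the cultures of the other strain lay near WT, slightly below it for PRP22 and slightly above it for TIF35. Since FPKM are scaled to length, the levels of the 2 genes can be set side by side: the PRP22 level of PRP22-OE was far below the TIF35 level of either strain. The other plasmid genes of the study, UTP6 and the short LSM5, were not called between these strains. UTP6, a component of the small-subunit processome, was at 71.8 and 61.6 FPKM in PRP22-OE and 84.4 and 70.0 FPKM in TIF35-OE (log2 fold change -0.21 ± 0.11 (SE), adjusted p = 0.237). LSM5, a subunit of the ring that binds U6 snRNA and decaying mRNA, is 282 bases long and was at 399 and 553 FPKM in PRP22-OE and 676 and 529.9 FPKM in TIF35-OE (log2 fold change -0.35 ± 0.31 (SE), adjusted p = 0.489), with overlapping cultures.

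The genes next to the plasmid genes were read in the same way. PRE1, a proteasome subunit gene that ends 409 bases before PRP22 starts, was at 907 and 841 FPKM in the PRP22-OE cultures, against 701 and 721 FPKM in the TIF35-OE cultures (log2 fold change 0.30 ± 0.05 (SE), adjusted p = 0.0157). That call was lost with 1 culture left out, with adjusted p of 0.0789 without PRP22-OE culture 1 and 0.0982 without TIF35-OE culture 1 and 0.0677 without TIF35-OE culture 2. HEM14, a heme synthesis gene on the other side of PRP22, was at 65.6 and 67.6 FPKM in PRP22-OE and 63.6 and 62.2 FPKM in TIF35-OE (adjusted p = 0.438). CYM1, a mitochondrial protease gene on the same strand as TIF35 that ends 199 bases before TIF35 starts, was at 36.7 and 38.2 FPKM in the PRP22-OE cultures, against 56.6 and 55.7 FPKM in the TIF35-OE cultures, with 36.0 and 37.1 FPKM in WT. It was lower in PRP22-OE by 1.5-fold (log2 fold change -0.58 ± 0.07 (SE), adjusted p = 0.00233), and the call held with each culture left out. BNA7, a gene of kynurenine metabolism on the other side of TIF35, was at 85.8 and 60.7 FPKM in PRP22-OE and 61.7 and 74.7 FPKM in TIF35-OE (adjusted p = 0.783). Both called neighbours lie on the promoter side of the plasmid gene, and each was higher in the strain carrying that gene.

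**Figure D3:**
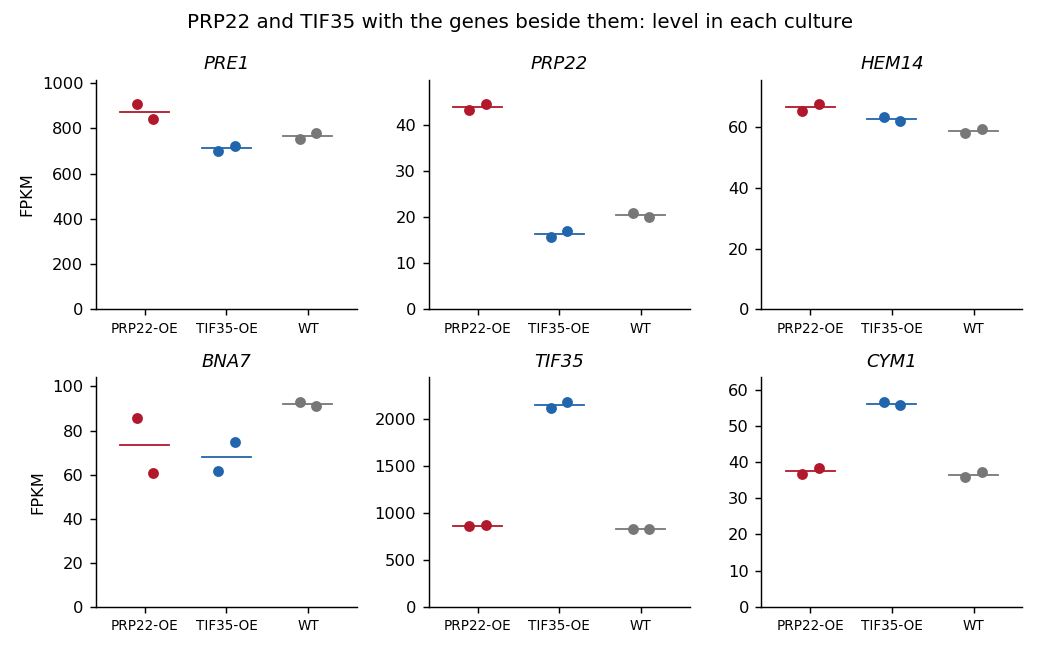
FPKM (y axis, from 0) of PRP22, TIF35 and the genes on each side of them in every PRP22-OE, TIF35-OE and WT culture; points are cultures and lines are means of 2. PRP22 is at 43.3 and 44.5 FPKM in PRP22-OE and TIF35 at 2121 and 2183 FPKM in TIF35-OE, each above all cultures of the other strains shown, and CYM1 is highest in TIF35-OE.

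Apart from PRP22 itself, the listed genes of the splicing machinery had log2 fold changes between -0.42 and 0.46. Spliceosomal RNAs were outside these lists, and 2 were named after their values were seen. LSR1 (U2) had a log2 fold change of -0.77 ± 0.21 (SE) (adjusted p = 0.0553) and snR19 (U1) one of -0.45 ± 0.22 (SE) (adjusted p = 0.219). Neither was called. Of 8 spliceosomal RNA helicases, PRP22, the plasmid gene, was the member called (12.5%, against 11.3% of all features). The other 7 (PRP2, PRP5, PRP16, PRP28, PRP43, SUB2 and BRR2) had log2 fold changes between 0.02 for PRP2 and 0.19 for BRR2, none called. BRR2, which unwinds U4 from U6, was at 18.9 and 18.5 FPKM in PRP22-OE and 16.2 and 16.5 FPKM in TIF35-OE. PRP43, which takes the spent spliceosome apart after Prp22 has acted, was at 152 and 164 FPKM in PRP22-OE and 146 and 145 FPKM in TIF35-OE. Among 76 other spliceosome components, 4 were higher in PRP22-OE and none lower, a share below that of all features. PRP24, which anneals U4 to U6, was at 24.9 and 26.1 FPKM in the PRP22-OE cultures, against 18.9 and 17.9 FPKM in the TIF35-OE cultures (log2 fold change 0.46 ± 0.08 (SE), adjusted p = 0.0148). CWC2, a protein that links the catalytic core to the Prp19 complex, was at 37.8 and 36.8 FPKM in the PRP22-OE cultures, against 27.2 and 27.4 FPKM in the TIF35-OE cultures (log2 fold change 0.44 ± 0.09 (SE), adjusted p = 0.0245). The pre-mRNA binding factor gene RSE1 had a log2 fold change of 0.29 ± 0.06 (SE), and PRP45, named after its values were seen, one of 0.23 ± 0.06 (SE). The calls of PRP24, CWC2 and RSE1 were lost whichever 1 of the 4 cultures was left out, with adjusted p up to 0.0931, 0.112 and 0.138. After rescaling the list had 3 higher and 3 lower members and its median of 0.037 became -0.001, so the direction of its calls depended on the scaling.

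Transcripts that carry introns were read from gene-level values, which do not separate spliced from unspliced RNA. Of 173 tested intron-containing genes other than those of ribosomal proteins, 3 were higher and 9 lower in PRP22-OE (6.94% called, against 11.3% of all features), with a median of 0.006. After rescaling 3 were higher and 17 lower and the median was -0.032. Lower calls over all features also rose with rescaling, from 311 to 483 of 5768. The largest called differences were in meiosis and spore genes. OSW2, a spore wall gene, was at 12.8 and 14.2 FPKM in the PRP22-OE cultures, against 27.1 and 26.4 FPKM in the TIF35-OE cultures (log2 fold change -0.96 ± 0.12 (SE), adjusted p = 0.00298). MND1, a meiotic recombination gene, was at 11.6 and 8.69 FPKM in the PRP22-OE cultures, against 24.6 and 21.1 FPKM in the TIF35-OE cultures (log2 fold change -1.15 ± 0.19 (SE), adjusted p = 0.0109), and its adjusted p was 0.0691 without PRP22-OE culture 2 and 0.0743 without TIF35-OE culture 1. Both were at low levels in these dividing haploid cells, and OSW2 was higher still in WT, at 44.9 and 45.5 FPKM. YDL012C, of 324 bases, was at 386 and 342 FPKM in PRP22-OE and 609 and 577 FPKM in TIF35-OE (log2 fold change -0.71 ± 0.12 (SE), adjusted p = 0.0112), with adjusted p of 0.0728 without PRP22-OE culture 2 and 0.0729 without TIF35-OE culture 1 and 0.0545 without TIF35-OE culture 2. The list had fewer called members with 1 culture left out, 6 without PRP22-OE culture 1, 2 without PRP22-OE culture 2, 1 without TIF35-OE culture 1 and 3 without TIF35-OE culture 2.

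Among eIF3 genes, TIF35 was not accompanied by the genes of its partners. Of 7 genes for eIF3 subunits and close partners, TIF35 was lower and NIP1 higher in PRP22-OE. That is 28.6% called, against 11.3% of all features, with the plasmid gene TIF35 itself included. NIP1, the c subunit of eIF3, was at 184 and 185 FPKM in the PRP22-OE cultures, against 155 and 156 FPKM in the TIF35-OE cultures, with 186 and 189 FPKM in WT (log2 fold change 0.25 ± 0.06 (SE), adjusted p = 0.0425). The TIF35-OE cultures were below both others for NIP1, but its call was lost whichever culture was left out (adjusted p up to 0.162). Values between the strains for the remaining 5 were 0.15 for RPG1, 0.08 for PRT1, -0.08 for TIF34, 0.05 for HCR1 and 0.04 for TIF5 on the log2 scale, none called. TIF34, the i subunit and direct partner of Tif35, was at 855 and 857 FPKM in PRP22-OE and 949 and 863 FPKM in TIF35-OE. Of 36 other translation factors, 3 were higher and 1 lower in PRP22-OE (11.1% called, near the 11.3% of all features), and 2 were higher and 2 lower after rescaling. The higher ones were YEF3, the fungal elongation factor, at 2396 and 2154 FPKM in PRP22-OE and 1774 and 1905 FPKM in TIF35-OE, TEF4, an eEF1B subunit, with 0.23 ± 0.06 (SE), and TIF3, the helicase cofactor eIF4B, with 0.23 ± 0.06 (SE). Each of these 3 calls was lost with any 1 culture left out, with adjusted p up to 0.188 for YEF3, 0.22 for TEF4 and 0.158 for TIF3.

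Among called features of at least 400 bases, the 2 widest differences between the strains were in the zinc genes ZPS1 and ZRT1. Of 18 tested genes of zinc uptake and response, 7 were higher in PRP22-OE by limma and none lower, also at an unadjusted p of at most 0.05, against 5.93% of all features higher. ZPS1, a cell surface protein made under zinc limitation, was at 1328 and 1235 FPKM in the PRP22-OE cultures, against 32.0 and 35.7 FPKM in the TIF35-OE cultures. ZPS1 was thus 37.8-fold higher in PRP22-OE (log2 fold change 5.22 ± 0.06 (SE), adjusted p = 8.58e-09), and its difference was 5.25 between the shorter-fragment libraries and 5.20 between the longer-fragment libraries. The 2 strains lay on opposite sides of WT, which was at 839.7 and 815 FPKM. ZRT1, the high-affinity zinc transporter of the plasma membrane, was at 2297 and 2139.8 FPKM in the PRP22-OE cultures, against 478 and 511 FPKM in the TIF35-OE cultures, with 936 and 949.8 FPKM in WT (log2 fold change 2.16 ± 0.06 (SE), adjusted p = 2.2e-06). ADH4, an alcohol dehydrogenase produced under zinc limitation, was at 156 and 151 FPKM in the PRP22-OE cultures, against 57.2 and 60.5 FPKM in the TIF35-OE cultures, with 119 and 129 FPKM in WT (log2 fold change 1.37 ± 0.06 (SE), adjusted p = 1.5e-05). The same order, PRP22-OE above WT and WT above TIF35-OE, held in every culture for these 3 genes, although ZPS1 and ADH4 differed from WT mainly in TIF35-OE.

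The other called zinc genes, named after their values were seen, had smaller differences. ZAP1, the zinc-responsive activator itself, was at 18.8 and 20.2 FPKM in the PRP22-OE cultures, against 11.8 and 13.8 FPKM in the TIF35-OE cultures (log2 fold change 0.60 ± 0.10 (SE), adjusted p = 0.0118). ZRT3, which exports zinc from the vacuole, was at 232 and 226 FPKM in the PRP22-OE cultures, against 152 and 162 FPKM in the TIF35-OE cultures (log2 fold change 0.55 ± 0.05 (SE), adjusted p = 0.00115). FET4, a low-affinity transporter of iron and zinc, was at 72.4 and 71.3 FPKM in PRP22-OE and 51.0 and 54.6 FPKM in TIF35-OE, and VEL1, of unknown function, at 10.3 and 10.7 FPKM in PRP22-OE and 6.65 and 5.90 FPKM in TIF35-OE. ZRT2, the low-affinity zinc transporter, was at 238 and 232 FPKM in PRP22-OE and 239.8 and 249 FPKM in TIF35-OE (adjusted p = 0.461). The vacuolar importer ZRC1 was at 456 and 431 FPKM in PRP22-OE and 400.1 and 418 FPKM in TIF35-OE (adjusted p = 0.192). The list median was 0.173, against 0.04 over all features. The list had 5 or 6 called members with 1 culture left out and 4 in the fit of the 4 libraries alone.

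Zap1 binds an 11-base palindromic element, and an exact match to the letters ACCTTNAAGGT, on either strand, was looked for in the 500 bases before each coding start of the R64 reference. It was present before 9 of 5712 tested protein-coding genes (0.158%) and before 3 of the 18 zinc genes, of which ZRT1 was called and MCD4 and ZRG17 were not. The ZRT1 match, which begins 204 bases before the start codon, is shown with the match in capitals because ZRT1 had the second widest difference among called features of at least 400 bases:
ZRT1 (chrVII:20765-20794, plus strand): acatatttgACCTTGAAGGTcatggaaagt
An exact match is a description of the letters, and no match before ZPS1 or ADH4 says only that these letters are not in that window.

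Some genes of high-affinity iron uptake were also higher in PRP22-OE. Of 29 tested iron genes, 9 were higher (against 5.93% of all features), 20 were not called and none was lower, also at an unadjusted p of at most 0.05. SIT1, a transporter of ferrioxamine-type siderophores, was at 51.3 and 44.9 FPKM in the PRP22-OE cultures, against 16.4 and 21.0 FPKM in the TIF35-OE cultures, with 55.7 and 47.7 FPKM in WT (log2 fold change 1.35 ± 0.13 (SE), adjusted p = 0.000996). FET3, the multicopper ferroxidase, was at 524 and 506 FPKM in the PRP22-OE cultures, against 241 and 245 FPKM in the TIF35-OE cultures, with 409 and 412 FPKM in WT (log2 fold change 1.08 ± 0.04 (SE), adjusted p = 1.5e-05). FTR1, the permease that works with Fet3, was at 451 and 408 FPKM in the PRP22-OE cultures, against 217 and 228 FPKM in the TIF35-OE cultures, with 393 and 399.8 FPKM in WT (log2 fold change 0.95 ± 0.07 (SE), adjusted p = 0.000288). For all 3 genes both TIF35-OE cultures lay below both PRP22-OE and both WT cultures. FET3 and FTR1 of PRP22-OE lay slightly above WT, and SIT1 cultures of PRP22-OE and WT overlapped.

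The remaining 6 called iron genes, named after their values were seen, were the cell wall mannoprotein FIT3 at 0.67, the reductases FRE3 at 0.63 and FRE6 at 0.44, the siderophore transporters ARN1 at 0.41 and ARN2 at 0.34, and the copper pump CCC2 at 0.34 on the log2 scale. FIT3 was at 77.2 and 80.3 FPKM in PRP22-OE and 51.4 and 47.0 FPKM in TIF35-OE. AFT1, the iron-responsive activator, was at 40.3 and 43.6 FPKM in PRP22-OE and 33.2 and 31.5 FPKM in TIF35-OE (adjusted p = 0.0695). The list median was 0.213. The count of 9 became 5 without PRP22-OE culture 1, 5 without PRP22-OE culture 2, 6 without TIF35-OE culture 1 and 5 without TIF35-OE culture 2, while SIT1, FET3 and FTR1 were called in all of those fits. All 9 called members had both TIF35-OE cultures below both WT cultures. They had been picked as lower in TIF35-OE than in PRP22-OE in the same TIF35-OE libraries, so this is partly built in. How often it held over all features was not counted.

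Aft1 recognizes the letters TGCACCC. They occurred on either strand in the 500 bases before 133 of 5712 coding starts (2.33%), before 21 of the 29 iron genes and before all 9 called ones. FIT3, which was called, and FRE5, which was not, share the same matches. Windows of 6 called genes are shown, with the match in capitals (GGGTGCA is the same match on the other strand):
FET3 (chrXIII:388560-388589, plus strand): atcttcaaaagTGCACCCatttgcaggtgc
FTR1 (chrV:461897-461926, minus strand): gcgtagatgaaTGCACCCgatttctaagtt
SIT1 (chrV:27458-27487, plus strand): aacacatttgaGGGTGCAatctggttcgtc
ARN1 (chrVIII:21213-21242, minus strand): atttatcaaaaTGCACCCataaaagcaggt
FRE3 (chrXV:1055107-1055136, plus strand): cttttgtaaaaTGCACCCatatctcatttt
CCC2 (chrIV:1005374-1005403, plus strand): agtattgtcctGGGTGCAgttatttgtagt
The matches begin 251 bases before the start codon in FET3, 175 in FTR1, 188 in SIT1, 260 in ARN1, 427 in FRE3 and 290 in CCC2. Another 12 iron genes held the letters and were not called, so the match did not separate called from uncalled members.

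**Figure D4:**
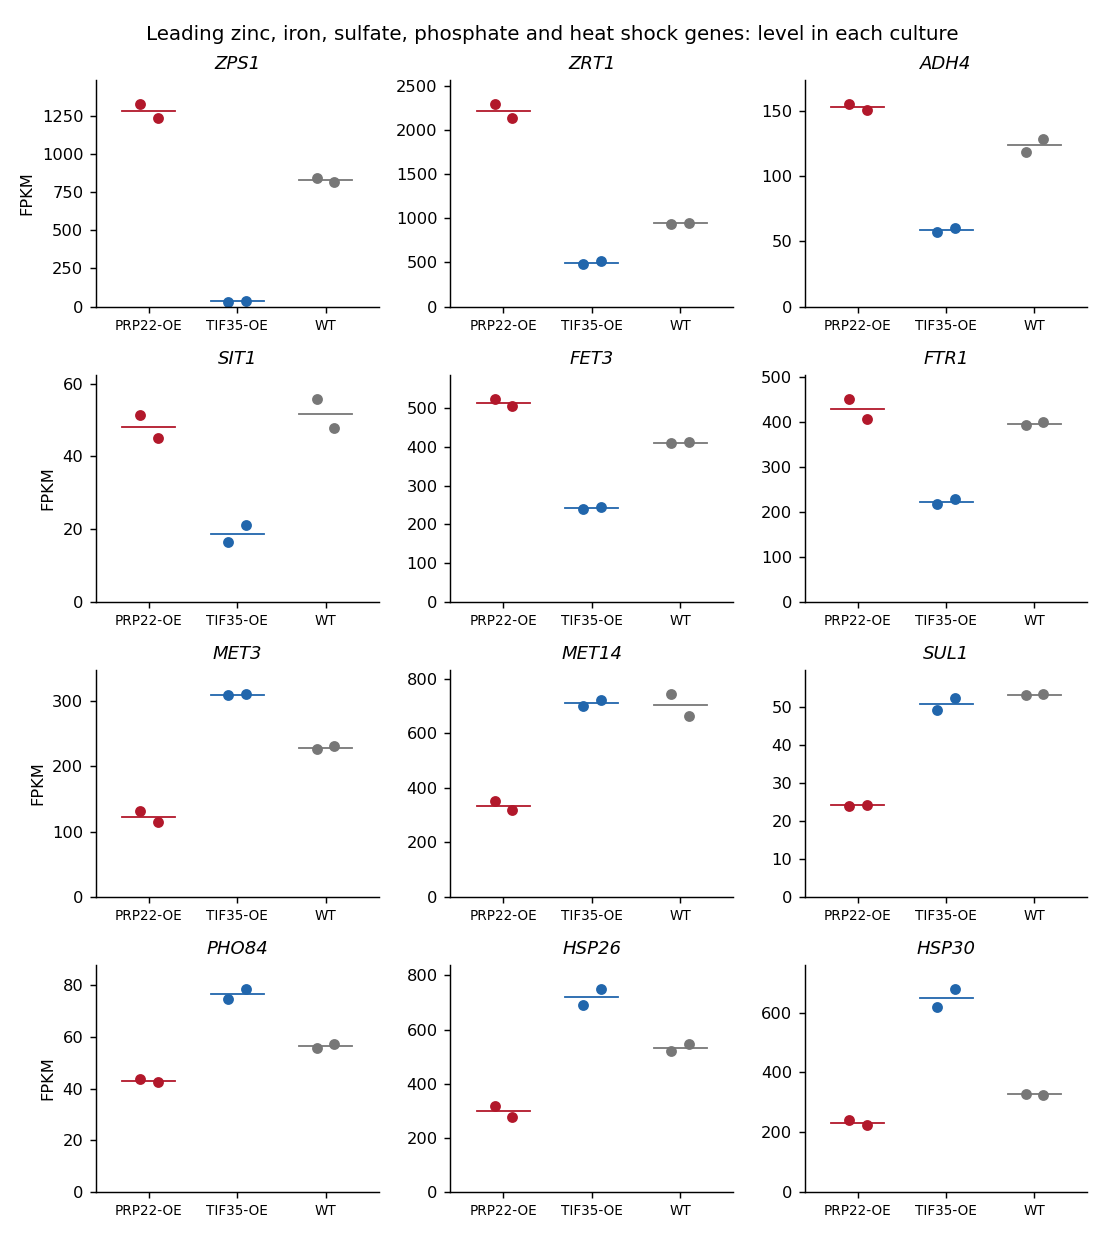
FPKM (y axis, from 0) of 12 leading genes of the zinc, iron, sulfate, phosphate and heat shock groups in every PRP22-OE, TIF35-OE and WT culture; points are cultures and lines are means of 2. ZPS1, ZRT1, ADH4, SIT1, FET3 and FTR1 are lowest in TIF35-OE, and MET3, MET14, SUL1, PHO84, HSP26 and HSP30 are lowest in PRP22-OE.

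Sulfate assimilation and methionine genes went the other way. Of 30 tested members, 18 were lower in PRP22-OE and 1 was higher, against 5.39% of all features lower, and the list median was -0.372. BY4741 lacks MET17, the enzyme that fixes sulfide into homocysteine, and takes its sulfur from supplied methionine, in every strain alike. MET3, the ATP sulfurylase that begins sulfate activation, was at 131 and 115 FPKM in the PRP22-OE cultures, against 309.7 and 311 FPKM in the TIF35-OE cultures, with 226 and 232 FPKM in WT (log2 fold change -1.34 ± 0.07 (SE), adjusted p = 8.5e-05). MET14, the adenylylsulfate kinase of the next step, was at 351 and 317 FPKM in the PRP22-OE cultures, against 698 and 723 FPKM in the TIF35-OE cultures (log2 fold change -1.09 ± 0.07 (SE), adjusted p = 0.000186). SUL1, a sulfate permease, was at 23.9 and 24.1 FPKM in the PRP22-OE cultures, against 49.0 and 52.1 FPKM in the TIF35-OE cultures (log2 fold change -1.06 ± 0.06 (SE), adjusted p = 8.5e-05). The 2 strains did not overlap in any of these, and WT at 743 and 663 FPKM for MET14 and 52.9 and 53.2 FPKM for SUL1 lay with TIF35-OE.

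The further steps from sulfate to sulfide, named after their values were seen, were lower in PRP22-OE as well. MET16, the reductase of activated sulfate, was at 112 and 129 FPKM in PRP22-OE and 223 and 219 FPKM in TIF35-OE (-0.87 ± 0.09 (SE)). MET10 and MET5, the sulfite reductase subunits, had log2 fold changes of -0.85 ± 0.06 (SE) and -0.76 ± 0.05 (SE). MET1, which makes the siroheme cofactor of that reductase, had one of -0.77 ± 0.05 (SE). Genes of methionine and cysteine metabolism had smaller differences, as in MET6, the methionine synthase, at 962 and 914 FPKM in PRP22-OE and 1337 and 1426 FPKM in TIF35-OE, and CYS3, the cystathionine lyase, at 440.4 and 428 FPKM in PRP22-OE and 536 and 549 FPKM in TIF35-OE. MET31, a regulator of the pathway, was the member that was higher in PRP22-OE, at 68.0 and 59.8 FPKM in PRP22-OE and 50.4 and 53.9 FPKM in TIF35-OE (log2 fold change 0.29 ± 0.07 (SE), adjusted p = 0.0454), while its paralog MET32 was lower at -0.50. MET4, the main activator, had a log2 fold change of 0.12 ± 0.09 (SE) and was not called. The count of 18 lower became 13 without PRP22-OE culture 1, 12 without PRP22-OE culture 2, 12 without TIF35-OE culture 1 and 11 without TIF35-OE culture 2, where MET31 was not called in any. Outside the list, JLP1, which releases sulfite from sulfonates, was at 25.3 and 25.1 FPKM in the PRP22-OE cultures, against 85.3 and 94.0 FPKM in the TIF35-OE cultures, with 62.0 and 62.7 FPKM in WT (log2 fold change -1.81 ± 0.14 (SE), adjusted p = 0.000288). PDC6, a minor pyruvate decarboxylase low in sulfur amino acids, was at 6.74 and 5.56 FPKM in the PRP22-OE cultures, against 17.9 and 18.1 FPKM in the TIF35-OE cultures (log2 fold change -1.48 ± 0.12 (SE), adjusted p = 0.000313), and SEO1, a putative permease linked to ethionine sulfoxide resistance, at 8.15 and 6.63 FPKM in the PRP22-OE cultures, against 22.0 and 20.8 FPKM in the TIF35-OE cultures (log2 fold change -1.48 ± 0.11 (SE), adjusted p = 0.000275).

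Cbf1 binds CACGTG, and Met31 and Met32 bind AAACTGTGG. CACGTG occurred in the 500 bases before 359 of 5712 coding starts (6.29%), before 20 of the 30 sulfate and methionine genes and before 14 of the 19 called ones. AAACTGTGG, searched on both strands, occurred before 49 coding starts (0.858%), before 12 of the 30 and before 7 of the 19. MMP1 and MHT1, both among the 7, lie on opposite strands and share the same match, so the 7 are not separate sites. MET3 held both, and its windows are shown with those of MET14, MET16 and SUL2, the match in capitals (CCACAGTTT is AAACTGTGG on the other strand):
MET3 (chrX:455850-455879, plus strand): agaaaaaaaggtCACGTGaccagaaaagtc
MET3 (chrX:455976-456005, plus strand): tataacaaagCCACAGTTTtacaacttagt
MET14 (chrXI:439596-439625, minus strand): tgccactaatttCACGTGatcaatatattt
MET16 (chrXVI:877793-877822, minus strand): ttatcatcatttCACGTGgctagtaaaaga
SUL2 (chrXII:323198-323227, plus strand): tggagtaaatgtCACGTGccactgtggccg
MET14 and MET16, with 2 of the widest differences, held CACGTG and no exact AAACTGTGG in the window searched. SUL2, the second sulfate permease, was at 31.4 and 30.3 FPKM in PRP22-OE and 41.8 and 44.6 FPKM in TIF35-OE.

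Several phosphate genes were lower in PRP22-OE too. Of 23 tested members 8 were lower (against 5.39% of all features), none was higher by limma and 15 were not called, with a median of -0.205, and 2 were higher at an unadjusted p of at most 0.05. PHO84, the high-affinity phosphate transporter, was at 43.6 and 42.5 FPKM in the PRP22-OE cultures, against 74.7 and 78.5 FPKM in the TIF35-OE cultures, with 55.8 and 57.3 FPKM in WT (log2 fold change -0.82 ± 0.05 (SE), adjusted p = 0.000112). PHO5, the secreted acid phosphatase, was at 27.5 and 29.6 FPKM in the PRP22-OE cultures, against 49.9 and 49.0 FPKM in the TIF35-OE cultures, with 34.0 and 35.5 FPKM in WT (log2 fold change -0.78 ± 0.06 (SE), adjusted p = 0.000423). PHO89, the sodium-phosphate cotransporter, was at 9.02 and 9.55 FPKM in the PRP22-OE cultures, against 18.6 and 21.1 FPKM in the TIF35-OE cultures, with 31.6 and 26.2 FPKM in WT (log2 fold change -1.06 ± 0.12 (SE), adjusted p = 0.00233). For PHO84 and PHO5 the strains stood on opposite sides of WT, while for PHO89 both stood below it. SPL2, a regulator of low-affinity phosphate uptake, was at 4.73 and 4.31 FPKM in PRP22-OE and 17.1 and 16.5 FPKM in TIF35-OE and was not called (adjusted p = 0.0794), and neither the activator PHO4 (-0.17) nor the inhibitor PHO81 (0.07) was. The count of 8 was 4 with any 1 of the 4 cultures left out, with PHO84, PHO5 and PHO89 among them each time.

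Pho4 binds the same CACGTG letters as Cbf1, and these stood before 14 of the 23 phosphate genes and before 4 of the 8 called ones. Windows before PHO84, PHO5 and PHO89 are shown with the match in capitals:
PHO84 (chrXIII:26197-26226, minus strand): tgttatttccagCACGTGgggcggaaatta
PHO5 (chrII:431187-431216, minus strand): ccttggcactcaCACGTGggactagcacag
PHO89 (chrII:798828-798857, minus strand): atgacaatgcagCACGTGggagacaaatag
The letters searched do not tell the 2 factors apart.

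Of 22 tested chaperone genes 10 were lower in PRP22-OE (against 5.39% of all features), 12 were not called and none was higher (median -0.195). BTN2, which gathers misfolded proteins for sorting, was at 84.5 and 88.8 FPKM in the PRP22-OE cultures, against 186 and 175 FPKM in the TIF35-OE cultures, with 255 and 275 FPKM in WT (log2 fold change -1.05 ± 0.08 (SE), adjusted p = 0.000288). HSP82, the inducible Hsp90, was at 247 and 239 FPKM in the PRP22-OE cultures, against 339 and 361 FPKM in the TIF35-OE cultures, with 398 and 412 FPKM in WT (log2 fold change -0.52 ± 0.07 (SE), adjusted p = 0.00324). FES1, a nucleotide exchange factor of Hsp70, was at 224 and 226 FPKM in the PRP22-OE cultures, against 325 and 297 FPKM in the TIF35-OE cultures (log2 fold change -0.47 ± 0.06 (SE), adjusted p = 0.00397). PRP22-OE was the lowest of the 3 strains in each. The Hsp70 gene SSA1, named after its value was seen, was at 970.2 and 923 FPKM in PRP22-OE and 1088 and 1152 FPKM in TIF35-OE (log2 fold change -0.24 ± 0.06 (SE), adjusted p = 0.0374). The count of 10 became 5 without PRP22-OE culture 1, 4 without PRP22-OE culture 2, 5 without TIF35-OE culture 1 and 4 without TIF35-OE culture 2, and it was 4 in the fit of the 4 libraries alone.

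Hsf1, the heat shock activator, binds repeats of nGAAn in alternating orientation, searched here as GAANNTTCNNGAA on both strands. This occurred before 83 of 5712 coding starts (1.45%), before 11 of the 22 chaperone genes and before 6 of the 10 called ones. Windows before BTN2 and SSA1 carry the match in capitals:
BTN2 (chrVII:772107-772136, plus strand): tttttctaGAAAGTTCCGGAAaattgcgac
SSA1 (chrI:141769-141798, minus strand): actttccaGAACATTCTAGAAagaaagcac
HSP82 held no exact match in its window and was among the called members.

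The environmental stress list split in both directions, with 6 of 34 tested members higher and 14 lower in PRP22-OE (58.8% called, against 11.3% of all features). The 3 with the widest differences among the lower were HSP30, HSP26 and GRE1. HSP30, a membrane protein that restrains the plasma membrane proton pump, was at 239 and 222 FPKM in the PRP22-OE cultures, against 619 and 678 FPKM in the TIF35-OE cultures, with 328 and 325 FPKM in WT (log2 fold change -1.49 ± 0.08 (SE), adjusted p = 8.97e-05). HSP26, a small heat shock protein, was at 317 and 277 FPKM in the PRP22-OE cultures, against 691 and 749 FPKM in the TIF35-OE cultures, with 519 and 545 FPKM in WT (log2 fold change -1.28 ± 0.09 (SE), adjusted p = 0.000186). GRE1, a hydrophilin, was at 48.9 and 61.4 FPKM in the PRP22-OE cultures, against 141 and 138 FPKM in the TIF35-OE cultures, with 139 and 138 FPKM in WT (log2 fold change -1.34 ± 0.14 (SE), adjusted p = 0.0013). HSP30 and HSP26 of TIF35-OE were above WT and those of PRP22-OE below it, and GRE1 of TIF35-OE lay at the WT level. The widest difference among the higher members was in RCK1, a kinase of the oxidative stress response, at 89.2 and 90.2 FPKM in the PRP22-OE cultures, against 27.4 and 32.6 FPKM in the TIF35-OE cultures, with 19.7 and 23.4 FPKM in WT (log2 fold change 1.57 ± 0.10 (SE), adjusted p = 0.000186). The catalase gene CTT1 at 94.6 and 97.2 FPKM in PRP22-OE and 59.6 and 62.3 FPKM in TIF35-OE and the aldehyde dehydrogenase gene ALD4 at 352 and 329 FPKM in PRP22-OE and 208 and 215 FPKM in TIF35-OE, named after their values were seen, were also higher in PRP22-OE. CTT1, ALD4 and RCK1 were above WT in both. With 1 culture left out the list had 3 or 4 higher members and 5 to 8 lower ones, 5 of them without TIF35-OE culture 2, 6 without PRP22-OE culture 2, 7 without TIF35-OE culture 1 and 8 without PRP22-OE culture 1.

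Some reserve carbohydrate and glucose-related genes were higher in PRP22-OE. Among 21 genes of glycogen and trehalose metabolism 7 were higher, none was lower and 14 were not called (33.3% called, against 11.3% of all features, median 0.179), the last 4 of TPS2, GSY1, GPH1, TSL1, GLG1, GLC3 and PGM2 being named after their values were seen. TPS2, the trehalose phosphatase, was at 309 and 298 FPKM in PRP22-OE, 208 and 226 FPKM in TIF35-OE and 172 and 173 FPKM in WT (log2 fold change 0.48 ± 0.05 (SE), adjusted p = 0.0018). GSY1, a glycogen synthase, was at 195 and 191 FPKM in PRP22-OE, 135 and 148 FPKM in TIF35-OE and 54.3 and 53.2 FPKM in WT (log2 fold change 0.44 ± 0.05 (SE), adjusted p = 0.00282). Both strains were above WT for each, PRP22-OE more so. GPH1, the glycogen phosphorylase, had a log2 fold change of 0.40 ± 0.08 (SE) and lost its call with any 1 culture left out (adjusted p up to 0.115). The count of 7 was 3 without PRP22-OE culture 1, 4 without PRP22-OE culture 2, 3 without TIF35-OE culture 1, 3 without TIF35-OE culture 2 and 0 in the fit of the 4 libraries alone, in which 1616 features had an unadjusted p of at most 0.05.

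Of 26 tested hexose transport and sensing genes, 7 were higher and 1 lower in PRP22-OE and 18 were not called (30.8% called, against 11.3% of all features), with a median of 0.261. HXT2, a transporter used at moderately low glucose, was at 1483 and 1288 FPKM in the PRP22-OE cultures, against 836 and 964 FPKM in the TIF35-OE cultures, with 1152 and 1192 FPKM in WT (log2 fold change 0.62 ± 0.09 (SE), adjusted p = 0.00543). MIG1, the glucose repressor, was at 121 and 129.6 FPKM in the PRP22-OE cultures, against 93.4 and 87.8 FPKM in the TIF35-OE cultures, with 87.5 and 91.9 FPKM in WT (log2 fold change 0.47 ± 0.06 (SE), adjusted p = 0.00392). HXT7 was at 1392 and 1117 FPKM in PRP22-OE and 850.0 and 961 FPKM in TIF35-OE, with 384 and 395 FPKM in WT, and its adjusted p was 0.14 without PRP22-OE culture 1 and 0.188 without TIF35-OE culture 1 and 0.0842 without TIF35-OE culture 2. HXT7 and HXT6 are near-identical copies, so reads may be shared between them and their values are uncertain. HXT5, a transporter of slowly growing cells named after its value was seen, was the lower member, at 39.8 and 40.6 FPKM in PRP22-OE and 52.2 and 56.6 FPKM in TIF35-OE. The 7 higher members became 2 without PRP22-OE culture 1, 4 without PRP22-OE culture 2, 2 without TIF35-OE culture 1 and 2 without TIF35-OE culture 2, and the single lower one was then not called. None was called in the fit of the 4 libraries alone.

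Central carbon genes had calls in both directions. MDH2, the cytosolic malate dehydrogenase, was at 340.0 and 300.4 FPKM in the PRP22-OE cultures, against 169.6 and 212 FPKM in the TIF35-OE cultures, with 267 and 273 FPKM in WT (log2 fold change 0.75 ± 0.10 (SE), adjusted p = 0.00544). TDH1, the glyceraldehyde-3-phosphate dehydrogenase of slow growth, was at 1749 and 1544 FPKM in the PRP22-OE cultures, against 2600.4 and 2859 FPKM in the TIF35-OE cultures, with 2192 and 2218 FPKM in WT (log2 fold change -0.73 ± 0.08 (SE), adjusted p = 0.00141). PDC5, a second pyruvate decarboxylase, was at 31.9 and 33.0 FPKM in the PRP22-OE cultures, against 20.2 and 22.1 FPKM in the TIF35-OE cultures, with 38.5 and 38.5 FPKM in WT (log2 fold change 0.61 ± 0.08 (SE), adjusted p = 0.00391). The last was higher in PRP22-OE while PDC6 was lower. In all, 2 of 26 genes of the TCA and glyoxylate cycles and gluconeogenesis were higher and 5 lower (26.9% called, against 11.3% of all features), and 1 of 21 glycolytic and fermentation genes was higher and 3 lower (19.0% called). The 7 calls of the TCA list were 3 without PRP22-OE culture 1, 1 without PRP22-OE culture 2, 3 without TIF35-OE culture 1, 1 without TIF35-OE culture 2 and 0 in the fit of the 4 libraries alone, while the glycolytic list had 1 higher and 3 lower with each culture left out. CIT3, a minor citrate synthase, was lower at -0.48, with adjusted p of 0.104 without PRP22-OE culture 1 and 0.107 without PRP22-OE culture 2 and 0.117 without TIF35-OE culture 2, and ICL1, isocitrate lyase, was higher at 0.38 and lost its call with any 1 culture left out, with adjusted p up to 0.188.

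**Figure D5:**
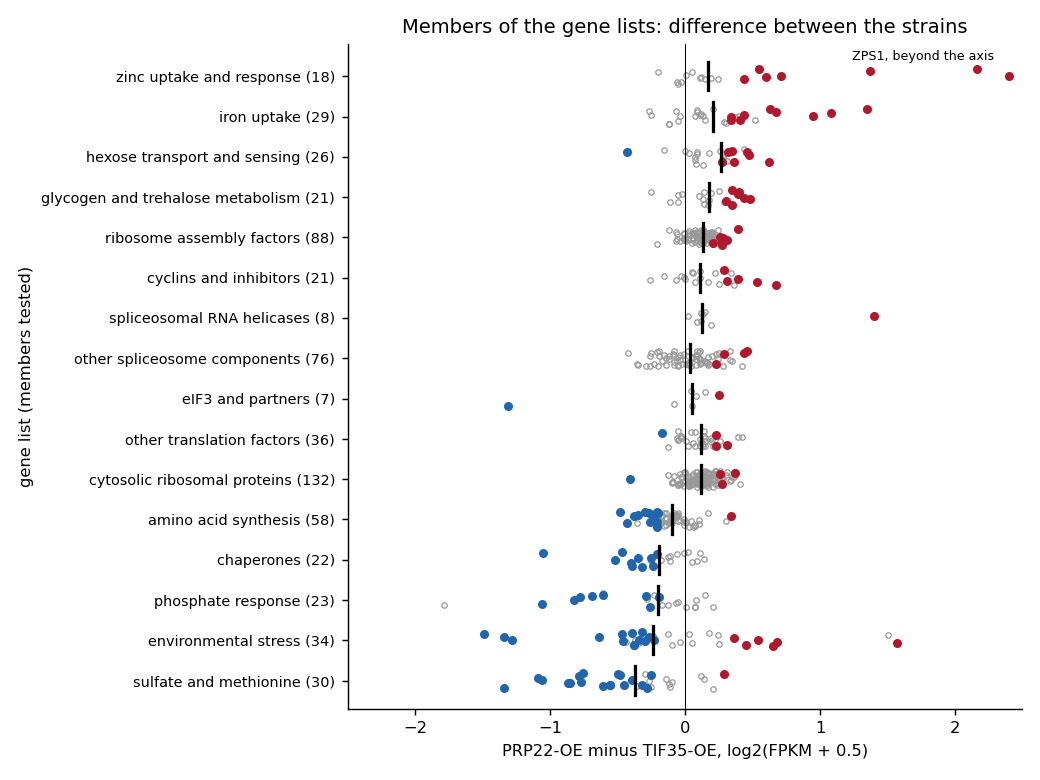
Difference PRP22-OE minus TIF35-OE on the log2(FPKM + 0.5) scale (x axis) for each tested member of 16 gene lists (rows); red and blue points are members called higher and lower, open points were not called, and black bars are medians. ZPS1 at 5.22 is drawn at the axis end. Zinc and iron members extend to the right and sulfate and methionine members to the left, while ribosomal protein and spliceosome members lie near 0.

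Genes of growth and protein synthesis moved by small amounts. Of 88 ribosome assembly factors, 7 were higher in PRP22-OE and none lower (7.95% called, against 11.3% of all features). Their median was 0.132, against 0.04 over all features. UTP22 was at 58.6 and 62.0 FPKM in the PRP22-OE cultures, against 45.9 and 46.2 FPKM in the TIF35-OE cultures (log2 fold change 0.39 ± 0.07 (SE), adjusted p = 0.0156), RRP5 had a log2 fold change of 0.31 ± 0.07 (SE) and UTP11 one of 0.28 ± 0.07 (SE). All 3 work in the small-subunit processome, and all 3 lost their calls with any 1 culture left out, with adjusted p up to 0.0965 for UTP22, 0.16 for RRP5 and 0.176 for UTP11. The count of 7 was 1 without PRP22-OE culture 1, 0 without PRP22-OE culture 2, 0 without TIF35-OE culture 1, 1 without TIF35-OE culture 2 and 0 in the fit of the 4 libraries alone. The 132 cytosolic ribosomal protein genes had a median of 0.121, with 3 higher and 1 lower (3.03% called). With a term for fragment length 10 were higher and 1 lower, and the median was 0.07 within the shorter-fragment and 0.19 within the longer-fragment libraries. RPL20B was at 4371 and 4301 FPKM in PRP22-OE and 3545 and 3624 FPKM in TIF35-OE, RPL31B, of 342 bases, at 2805 and 2683 FPKM in PRP22-OE and 2187 and 2056 FPKM in TIF35-OE, and RPL15B, the lower one, at 153 and 139 FPKM in PRP22-OE and 178 and 210.4 FPKM in TIF35-OE. All 3 have near-identical paralogs that may share reads. Their calls were lost with 3 or 4 of the cultures left out, with adjusted p up to 0.118 for RPL20B, 0.107 for RPL31B and 0.167 for RPL15B.

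Cell cycle genes gave 5 higher members among 21 cyclins and inhibitors (against 5.93% of all features) and none lower. PCL1, a cyclin of the Pho85 kinase made in late G1, was at 145 and 125 FPKM in the PRP22-OE cultures, against 83.1 and 86.3 FPKM in the TIF35-OE cultures, with 151 and 163 FPKM in WT (log2 fold change 0.67 ± 0.08 (SE), adjusted p = 0.00209). CLN1, a G1 cyclin, was at 119.5 and 115 FPKM in the PRP22-OE cultures, against 79.3 and 82.9 FPKM in the TIF35-OE cultures (log2 fold change 0.53 ± 0.08 (SE), adjusted p = 0.00865), with adjusted p of 0.0525 without PRP22-OE culture 1 and 0.0616 without TIF35-OE culture 1. PCL2 was at 44.8 and 45.5 FPKM in PRP22-OE and 34.7 and 34.1 FPKM in TIF35-OE and lost its call with any 1 culture left out, with adjusted p up to 0.154. TIF35-OE was the lowest of the 3 strains in these genes. The count of 5 was 2 without PRP22-OE culture 1, 2 without PRP22-OE culture 2, 1 without TIF35-OE culture 1 and 2 without TIF35-OE culture 2. In the mating list 2 of 32 members were higher and 2 lower (12.5% called, near the 11.3% of all features). PRM8, a pheromone-regulated membrane protein, was at 166 and 166 FPKM in the PRP22-OE cultures, against 254 and 272 FPKM in the TIF35-OE cultures (log2 fold change -0.66 ± 0.05 (SE), adjusted p = 0.000313). BAR1, the protease that degrades alpha-factor, was at 130.1 and 134 FPKM in PRP22-OE and 168 and 178 FPKM in TIF35-OE (log2 fold change -0.39 ± 0.05 (SE), adjusted p = 0.00469). FAR1, the pheromone-dependent cyclin kinase inhibitor, was at 58.4 and 59.8 FPKM in PRP22-OE and 45.2 and 45.3 FPKM in TIF35-OE (log2 fold change 0.38 ± 0.07 (SE), adjusted p = 0.0173). The call of FAR1 was lost with any 1 culture left out (adjusted p up to 0.0962).

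Of 58 amino acid synthesis genes, 12 were lower (against 5.39% of all features) and 1 higher in PRP22-OE (median -0.102). After rescaling 20 were lower, while lower calls over all features rose from 311 to 483. ARG3, ornithine carbamoyltransferase, was at 78.9 and 83.4 FPKM in PRP22-OE, 116 and 112 FPKM in TIF35-OE and 62.5 and 61.0 FPKM in WT (log2 fold change -0.48 ± 0.06 (SE), adjusted p = 0.00396). ARG1, argininosuccinate synthetase, was at 566 and 511 FPKM in PRP22-OE, 707 and 743 FPKM in TIF35-OE and 337 and 333 FPKM in WT (log2 fold change -0.43 ± 0.06 (SE), adjusted p = 0.00648), with an adjusted p of 0.0507 without TIF35-OE culture 2. Both strains were above WT for these arginine genes, TIF35-OE more so. SER33, of serine synthesis, had -0.38 ± 0.07 (SE), with adjusted p of 0.0714 without PRP22-OE culture 2 and 0.0837 without TIF35-OE culture 2. GCN4, the activator of these pathways, named after its value was seen, was at 1651 and 1508 FPKM in PRP22-OE and 1387 and 1559 FPKM in TIF35-OE (adjusted p = 0.397). Without 1 culture 2 to 4 members were lower: 4 without PRP22-OE culture 1, 3 without PRP22-OE culture 2, 3 without TIF35-OE culture 1 and 2 without TIF35-OE culture 2.

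Nitrogen genes had 1 higher and 4 lower members of 30 (16.7% called, against 11.3% of all features). PUT4, the proline permease, was at 9.12 and 10.7 FPKM in the PRP22-OE cultures, against 4.95 and 4.35 FPKM in the TIF35-OE cultures (log2 fold change 1.02 ± 0.15 (SE), adjusted p = 0.00671), with an adjusted p of 0.0627 without PRP22-OE culture 2. PUT1, the proline oxidase, went the other way at 27.1 and 26.1 FPKM in PRP22-OE and 35.3 and 41.2 FPKM in TIF35-OE (log2 fold change -0.51 ± 0.08 (SE), adjusted p = 0.00997), with adjusted p of 0.0694 without PRP22-OE culture 2 and 0.0544 without TIF35-OE culture 2. CPS1, a vacuolar carboxypeptidase, was at 154 and 159 FPKM in the PRP22-OE cultures, against 241 and 237 FPKM in the TIF35-OE cultures, with 245 and 246 FPKM in WT (log2 fold change -0.61 ± 0.05 (SE), adjusted p = 0.000288). Of 18 purine genes, IMD2, an IMP dehydrogenase, was the member called, at 74.2 and 73.7 FPKM in the PRP22-OE cultures, against 44.9 and 45.8 FPKM in the TIF35-OE cultures, with 88.1 and 92.8 FPKM in WT (log2 fold change 0.70 ± 0.05 (SE), adjusted p = 0.000288). Reads of IMD2 may be shared with its close paralogs. Of the purine list 5.56% and of the pyrimidine list 16.7% were called. Of 12 pyrimidine genes, URA1 at 0.23 ± 0.05 (SE) and URA2 at 0.22 ± 0.05 (SE) were higher in PRP22-OE and lost their calls with any 1 culture left out, with adjusted p up to 0.121 for URA1 and 0.154 for URA2.

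The other lists held few calls, against 11.3% called over all features. Shares near that were 10.3% for mRNA decay, 12.1% for the proteasome and 11.1% for ergosterol genes. They were 2.7% for respiratory, 3.03% for mitochondrial ribosomal protein, 6.25% for daughter separation and 16.7% for FAR arrest complex genes. Among 39 genes of mRNA decay 4 were higher, TRF5 at 0.37 ± 0.08 (SE), SKI3 at 0.29 ± 0.07 (SE) and NOT3 at 0.27 ± 0.07 (SE) the widest, each lost with any 1 culture left out (adjusted p up to 0.124, 0.15 and 0.195). Of 33 proteasome genes, 1 was higher (PRE1, beside PRP22) and 3 lower, among them RPT3 at -0.23 ± 0.05 (SE) and RPN6 at -0.19 ± 0.05 (SE), with adjusted p up to 0.159 and 0.193. The 3 lower became 8 after rescaling and 0 with the replicate block, while the 311 lower calls over all features became 483 and 240. Of 27 ergosterol genes, the regulators ECM22 at 0.38 ± 0.09 (SE) and UPC2 at 0.28 ± 0.07 (SE) were higher and ERG26 at -0.39 ± 0.08 (SE) was lower. With 1 culture left out their adjusted p reached 0.17, 0.181 and 0.104. Of 37 respiratory genes NDI1 (0.23 ± 0.06 (SE)) was called, of 66 mitochondrial ribosomal protein genes RSM22 (0.29 ± 0.07 (SE)) was higher and MRP8 (-0.43 ± 0.05 (SE)) lower, of 16 daughter separation genes DSE4 (-0.26 ± 0.06 (SE)) was lower and of 6 genes of the FAR arrest complex VPS64 (0.35 ± 0.08 (SE)) was higher. MRP8 carries the name of the group without an established ribosomal role, and it was called with each culture left out, while NDI1, RSM22, DSE4 and VPS64 reached adjusted p of 0.195, 0.157, 0.148 and 0.147. None of the 11 histone genes was called by limma, and 2 were higher at an unadjusted p of at most 0.05.

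Further genes with the widest differences among features of at least 400 bases belonged to no list. YCR007C, a membrane protein of the DUP240 family, was at 106 and 103 FPKM in the PRP22-OE cultures, against 307 and 333 FPKM in the TIF35-OE cultures, with 431 and 428 FPKM in WT (log2 fold change -1.61 ± 0.06 (SE), adjusted p = 1.47e-05). PUG1, a plasma membrane protein of heme and protoporphyrin transport, was at 30.2 and 31.7 FPKM in the PRP22-OE cultures, against 75.6 and 79.5 FPKM in the TIF35-OE cultures (log2 fold change -1.31 ± 0.10 (SE), adjusted p = 0.000299). SNZ1, of vitamin B6 synthesis, was at 294 and 280.3 FPKM in the PRP22-OE cultures, against 632 and 639 FPKM in the TIF35-OE cultures, with 489 and 487 FPKM in WT (log2 fold change -1.15 ± 0.05 (SE), adjusted p = 1.47e-05). All 3 were called with each culture left out. Of the higher ones, YDL211C, of unknown function, was at 28.0 and 25.2 FPKM in the PRP22-OE cultures, against 13.5 and 13.0 FPKM in the TIF35-OE cultures (log2 fold change 0.97 ± 0.09 (SE), adjusted p = 0.001). COS12, of a subtelomeric family, was at 8.21 and 6.33 FPKM in PRP22-OE and 3.10 and 3.73 FPKM in TIF35-OE (log2 fold change 0.98 ± 0.25 (SE), adjusted p = 0.0448) and lost its call with any 1 culture left out (adjusted p up to 0.189).

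Ty retrotransposon features gave 7 higher members of 53 and none lower (13.2% called, near the 11.3% of all features, median 0.166). Their log2 fold changes ran from -3.4 to 2.0, the lowest not called. By limma 13 were higher and 1 lower at an unadjusted p of at most 0.05. YML045W, a Gag-Pol reading frame on chromosome XIII, was at 26.3 and 21.4 FPKM in the PRP22-OE cultures, against 6.15 and 4.98 FPKM in the TIF35-OE cultures, with 44.5 and 63.9 FPKM in WT (log2 fold change 2.00 ± 0.25 (SE), adjusted p = 0.00325). Both strains were below WT, TIF35-OE more so. YJR027W had a log2 fold change of 0.43 ± 0.07 (SE) and YDR034C-D one of 0.39 ± 0.10 (SE), and both calls were lost with any 1 culture left out (adjusted p up to 0.0694 and 0.184). Ty copies are near-identical, so how reads were divided among them is uncertain. The count of 7 was 1 without PRP22-OE culture 1, 2 without PRP22-OE culture 2, 1 without TIF35-OE culture 1 and 1 without TIF35-OE culture 2, and the fit of the 4 libraries alone had 1 higher and 1 lower.

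Non-coding RNA genes, a class added after values were seen, had 3 of 48 higher and 11 lower in PRP22-OE (29.2% called, against 11.3% of all features). The 11 lower became 8 without PRP22-OE culture 1, 5 without PRP22-OE culture 2, 4 without TIF35-OE culture 1 and 4 without TIF35-OE culture 2. The 37S pre-ribosomal RNA gene RDN37-1 was at 55.1 and 49.1 FPKM in the PRP22-OE cultures, against 93.3 and 109 FPKM in the TIF35-OE cultures, with 44.4 and 48.1 FPKM in WT (log2 fold change -0.95 ± 0.10 (SE), adjusted p = 0.00125), and the external spacer ETS1-1 at 153 and 148 FPKM in the PRP22-OE cultures, against 253 and 241 FPKM in the TIF35-OE cultures, with 101 and 114 FPKM in WT. RDN25-1, the large mature rRNA, was at 467 and 454 FPKM in PRP22-OE and 938 and 795 FPKM in TIF35-OE, with 436 and 670.0 FPKM in WT. Each of these is listed as 2 copies with identical values, so 6 of the 11 lower features hold 3 sets of values. RDN37-1 (chrXII:451575-458432) spans both RDN25-1 (chrXII:451786-455181) and ETS1-1 (chrXII:457733-458432), so these 3 are not separate signals. Of the 3 higher features, RUF5-1 and RUF5-2 also have identical values and are 1 signal. SCR1, the RNA of the signal recognition particle, was at 33.8 and 32.8 FPKM in PRP22-OE and 64.4 and 95.7 FPKM in TIF35-OE, with 46.8 and 89.0 FPKM in WT, and lost its call with any 1 culture left out (adjusted p up to 0.173). The U3 gene snR17a was at 17.6 and 20.9 FPKM in PRP22-OE and 31.9 and 35.5 FPKM in TIF35-OE. These RNAs are mostly not polyadenylated. RDN18-1, the small mature rRNA, was not called at 336 and 334 FPKM in PRP22-OE and 783 and 659 FPKM in TIF35-OE (adjusted p = 0.115), with WT cultures far apart at 299 and 687 FPKM, and neither was the mitochondrial 15S_RRNA (adjusted p = 0.164). The part of the rRNA features in the other differences was not tested.

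Among the 498 features under 400 bases, 19 were called, a smaller share than the 11.3% of all features. The 4 largest were PAU12, YOL159C-A, SPG4 and ROQ1. PAU12, of the seripauperin family, was at 15.4 and 7.77 FPKM in the PRP22-OE cultures, against 1.70 and 1.87 FPKM in the TIF35-OE cultures (log2 fold change 2.33 ± 0.28 (SE), adjusted p = 0.0029), with cultures of PRP22-OE well apart and near-identical family members that may share reads. YOL159C-A was at 6.14 and 9.72 FPKM in the PRP22-OE cultures, against 31.7 and 35.1 FPKM in the TIF35-OE cultures (log2 fold change -2.04 ± 0.31 (SE), adjusted p = 0.0083), with an adjusted p of 0.0551 without TIF35-OE culture 2. SPG4, a gene used in stationary phase, was at 145 and 159.9 FPKM in the PRP22-OE cultures, against 380.4 and 335 FPKM in the TIF35-OE cultures, with 265 and 272 FPKM in WT (log2 fold change -1.23 ± 0.13 (SE), adjusted p = 0.00156), and was called with each culture left out. ROQ1, a regulator of the ubiquitin ligase Ubr1, was at 122 and 87.4 FPKM in PRP22-OE and 188 and 177 FPKM in TIF35-OE and lost its call with any 1 culture left out (adjusted p up to 0.202).

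Levels were also placed against WT, whose 2 cultures both strains share. Of the 653 called features, 103 had both PRP22-OE cultures above and both TIF35-OE cultures below the 2 WT cultures, and 83 had the reverse. How often either arrangement held over all tested features was not counted. Non-overlap of PRP22-OE and TIF35-OE alone held in 59.0% of them. ZPS1, ZRT1, ADH4, FET3 and FTR1 were among the 103, and MET3, JLP1, HSP26, HSP30, PHO84 and PHO5 among the 83. On chromosomes, the median difference of features of at least 400 bases lay between 0.004 on chromosome III and 0.062 on chromosome XVI, so no nuclear chromosome was shifted as a whole.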

How the data were processed

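RNA was measured in 10 libraries, 2 cultures of each of 5 strains, grouped by their labels. Per the paper's methods, the authors mapped 150 bp paired-end TruSeq reads with HISAT2 against S288c, obtained counts with featureCounts, filtered with edgeR and tested with DESeq2, whereas the submitters' processing notes name STAR, RSEM, edgeR and limma, without versions. Both tables deposited by the authors hold FPKM, identical in all 58240 cells, although 1 of them is labelled as raw. How the FPKM were computed is not given in the sources used here, and since the values are not counts, no count test was run.

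PRP22-OE minus TIF35-OE was tested with limma 3.58.1 in R 4.3.3 (lmFit, eBayes with trend) on log2(FPKM + 0.5), over features averaging 1 FPKM or more. All 10 libraries were in 1 fit with 5 residual degrees of freedom. P-values are two-sided and adjusted by Benjamini-Hochberg over all 5768 features, and a feature was called at an adjusted p of at most 0.05. The same script was tested on simulated data. Fold changes are on the log2(FPKM + 0.5) scale and understate those of low genes. Depth and fragment length were estimated for each library from the spacing of low FPKM values.

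Lists are described by counts and medians, with no set test. Named were the plasmid genes and their neighbours, the 12 largest rises and 12 largest falls of at least 400 bases with non-overlapping cultures, the 3 largest called members of each list, and the 4 largest called features under 400 bases; other genes are marked as named after their values were seen. Members and lists were chosen with earlier results of these data known, and the motifs after seeing values. Features were matched to the RefSeq R64 annotation, from which coordinates and sequence come; the files hold no coordinates. Of the 5824 features, 49 were matched by symbol, and 32 repeat the values of another feature. MFA1, MFA2, LEU2 and MET17 were not analysed here. Other steps used Python 3.11.15, pandas 2.3.3, numpy 2.4.6 and matplotlib 3.10.9. Alternatives were other pseudocounts (0.1, 1), filters (none, a mean of 5 FPKM), rescaling, the 4 libraries alone, a replicate block, features of at least 400 bases, a term for fragment length, no trend, and each culture left out. The culture numbers did not pair the samples.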

Additional observations from a re-analysis of the deposited data

Results flagged for a closer look

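Among the 98 named genes, PRP22 and TIF35 were left aside here. Of the rest, 34 called genes had both PRP22-OE cultures on one side of both WT cultures and both TIF35-OE cultures on the other. Whether the 2 strains' differences from WT differ is the test of PRP22-OE against TIF35-OE itself. Passing that test was a condition for being among the 34, so it adds no support. Both strains also share the same 2 WT cultures. The values below are PRP22-OE minus TIF35-OE on the log2 scale.

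In 17 of them PRP22-OE was above WT and TIF35-OE below it. The widest were ZPS1 at 5.22, PAU12 at 2.33, ZRT1 at 2.16, ADH4 at 1.37, FET3 at 1.08, PUT4 at 1.02, YDL211C at 0.97, FTR1 at 0.95 and MDH2 at 0.75, with zinc and iron genes leading. The rest were HXT2 at 0.62, CLN1 at 0.53, RRP5 at 0.31, PRE1 at 0.30, RSM22 at 0.29, RPL20B at 0.27, URA1 at 0.23 and URA2 at 0.22.

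In the other 17 PRP22-OE was below WT and TIF35-OE above it. The widest were JLP1 at -1.81, HSP30 at -1.49, PDC6 at -1.48, SEO1 at -1.48, MET3 at -1.34, HSP26 at -1.28, SPG4 at -1.23, SNZ1 at -1.15 and MND1 at -1.15, which include sulfur, heat shock and vitamin B6 genes. The rest were PHO84 at -0.82, PHO5 at -0.78, TDH1 at -0.73, MRP8 at -0.43, ERG26 at -0.39, SER33 at -0.38, DSE4 at -0.26 and RPT3 at -0.23.

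PAU12 and SPG4 are under 400 bases, where the 2 within-class differences had r = -0.06. Over all 653 called features, 103 had the first arrangement and 83 the second.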

How the results depend on the processing

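The 653 calls between the strains became 131 in the fit of the 4 libraries alone, which had 2 residual degrees of freedom in place of 5, and between 178 and 254 with 1 culture left out. With 1 culture left out the lone library of a strain is assumed to vary like the other groups. With the other settings listed with the methods there were between 479 and 835 calls: 479 with the culture number as a replicate block, 561 without a variance trend, 646 and 660 with pseudocounts of 1 and 0.1, 659 with no filter on low values, 680 with a mean of at least 5 FPKM, 676 with a term for fragment length, 784 after rescaling and 835 over features of at least 400 bases. The 34 calls with a difference of 1 or more stayed between 29 and 37 with all of these settings.

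The culture numbers are shared by label only. The first-minus-second culture differences of PRP22-OE and TIF35-OE had r = -0.36 across features, so a crossed pairing, chosen after seeing the data, was also fitted to the 4 libraries. It pairs libraries of the same fragment length class, leaves 1 residual degree of freedom and gave 52 calls, and 25 of 1 or more. The replicate block lost the calls of 15 of the 94 called named genes, the fit of the 4 libraries 54, and the crossed pairing 70.

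Of the 94 called named genes, 36 were called with every one of these settings, the crossed pairing not counted, and none changed sign with any of them. BNA7, which was not called, had a log2 fold change of 0.09 that was -0.16 without PRP22-OE culture 1 and -0.05 without TIF35-OE culture 1, and at most 0.34 without PRP22-OE culture 2. With 2 cultures per strain wide differences could miss the threshold too, as in SPL2 (adjusted p = 0.0794).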
